A study of Mus musculus with 12 samples.

Results

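The 6 genes described here, *Gli1*, *Gli2*, *Gli3*, *Ptch1*, *Smo* and *Hhip*, form the core of the Hedgehog pathway in lung mesenchyme. They were taken by gene name from the count table and from the normalized table of the series, and they are 6 of the 40760 genes listed there. Each name matched 1 row, and all 6 passed the filter on low counts, which left 17418 genes for testing. The study asked how loss of the membrane receptor PEAR1 changes lung mesenchymal cells in bleomycin-induced pulmonary fibrosis, and it sequenced RNA of Pdgfra+ (CD140a+) cells sorted from whole mouse lung. There were 12 libraries, with 3 replicates in each of 4 groups. *WT* vehicle and *WT* bleo came from wild-type mice given vehicle or bleomycin. Pear1-/- vehicle and Pear1-/- bleo came from mice labelled Pear1-/-, given the same agents. All mice were male, on the C57BL/6 background, and between 8 and 12 weeks old unless the study said otherwise, and bleomycin was given to the lung as an aerosol through the trachea. The dose and the day of sorting for these libraries, and the number of mice behind a library, were not given in the sources used here, so the p-values below measure the spread between libraries, which may be technical.

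Hedgehog ligands (SHH, IHH and DHH) are secreted proteins that bind the receptor PTCH1. Without ligand, PTCH1 holds back the membrane protein SMO. With ligand, SMO enters the primary cilium and the GLI transcription factors are turned into activators: GLI1 acts only as an activator, GLI2 mainly as an activator, and GLI3 mainly as a repressor when no ligand is present. *Gli1*, *Ptch1* and *Hhip* are themselves transcribed in response to GLI proteins, and PTCH1 and HHIP, which binds the ligands, dampen the pathway in return. In the lung the ligands come mostly from epithelium and the response lies in the mesenchyme, where *Gli1* marks cells around airways and vessels.

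The files held between 6702948 and 10447101 counts per library. CPM are counts scaled to the size of the library. For a floor of 3 counts that size was the plain total, which gave 0.287 CPM in the deepest and 0.448 CPM in the shallowest library. For the CPM of genes and marker lists below, the size was a total adjusted by TMM scaling. The floor is therefore not on exactly the same scale as those levels. Counts of *Pear1* did not follow the genotype labels. With vehicle, *Pear1* had 576, 545 and 519 normalized counts in the *WT* libraries and 511, 501 and 547 in those labelled Pear1-/-. With bleo it had 256, 239 and 266 in the former and 355, 372 and 344 in the latter. The study used a knockout-first allele, in which a cassette stands in an intron of the gene. It describes this allele as non-expressive, with a transcript that is trapped and cut short by the cassette. Counts summed over a whole gene do not show where along the transcript the reads lie. Why the counts of *Pear1* did not follow the labels was not tested. The genotype is therefore given below as labelled. *WT* vehicle replicate 2 stood apart from its group. Its counts differed from those of *WT* vehicle replicates 1 and 3 with a chi-square per degree of freedom of 21.2 and 21.8 (1 for counting noise alone), and from those of the libraries labelled Pear1-/- vehicle with 1.73, 2.13 and 2.67. Pear1-/- vehicle replicate 3 also differed from the rest of its group, replicates 1 and 2, by 4.31 and 4.82, where replicates 1 and 2 differed by 1.44 and pairs within the other groups, *WT* vehicle replicate 2 aside, by between 1.35 and 1.58. Fold changes of the members that rest on *WT* vehicle replicate 2, and the calls between the vehicle groups, are given with and without that library. Group means, SD and ratios include it. Markers of leukocytes were present despite the sort. *Ptprc*, the gene of the pan-leukocyte antigen CD45, had between 339 and 451 CPM over the vehicle libraries, and the 14 leukocyte markers together reached between 6113 and 7901 CPM there, between 31413 and 32591 CPM in *WT* bleo and between 13659 and 14114 CPM in Pear1-/- bleo. No marker of this list was at 0 in every library. *Pdgfra*, the sorting marker, was at between 463 and 541 CPM in the vehicle libraries, between 152 and 159 CPM in *WT* bleo and between 267 and 272 CPM in Pear1-/- bleo. In bulk RNA of this kind, fewer cells of a type and less RNA per cell cannot be told apart.

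*Hhip* and *Ptch1* are the members whose transcription is best known to follow GLI proteins outside the GLI genes, and their start regions are shown for that reason. RefSeq's promoter table (GRCm38.p6) held 5 of the 6 members, as windows of 300 bases that run from 250 bases before to 50 bases after a transcript's start. The consensus GLI site GACCACCCA, searched with its reverse complement TGGGTGGTC, lay in 0 of these 5 windows and in 0.253% of the 32851 promoters of the table. Its inner letters CCACCC, or GGGTGG on the other strand, lay in the windows of *Gli2* (2 matches), *Gli3* (1), *Smo* (1) and *Hhip* (1) but not in that of *Ptch1*, and in 31.5% of all promoters. These letters are contained in the consensus site, and their presence or absence in such a window is a description of sequence only. The *Hhip* window lies at chr8:80057959-80058258 on the minus strand, and capitals mark the CCACCC match. The *Ptch1* window lies at chr13:63565686-63565985 on the minus strand, inside the outer limits of the gene. Both are printed in the direction of transcription.
Hhip: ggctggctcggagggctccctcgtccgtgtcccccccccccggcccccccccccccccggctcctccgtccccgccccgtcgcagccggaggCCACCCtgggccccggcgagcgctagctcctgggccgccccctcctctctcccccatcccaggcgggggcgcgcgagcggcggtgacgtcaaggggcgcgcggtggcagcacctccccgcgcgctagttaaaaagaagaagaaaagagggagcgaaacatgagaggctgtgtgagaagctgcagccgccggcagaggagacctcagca
Ptch1: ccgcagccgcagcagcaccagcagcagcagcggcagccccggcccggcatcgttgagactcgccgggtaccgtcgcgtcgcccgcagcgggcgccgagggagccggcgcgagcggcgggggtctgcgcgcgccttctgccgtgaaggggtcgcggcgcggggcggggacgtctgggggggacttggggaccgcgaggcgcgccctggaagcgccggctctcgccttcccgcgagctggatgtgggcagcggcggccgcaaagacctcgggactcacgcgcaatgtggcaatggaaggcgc
The *Hhip* window is 73.7% G and C, and the *Ptch1* window 76.3%.

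The *Hhip* gene (ENSMUSG00000064325; GRCm38, chromosome 8, 79965851 to 80058006, minus strand) was by far the most abundant member in the vehicle groups and the one that moved most between vehicle and bleo. It had 2120, 2808 and 2077 normalized counts in the *WT* and 2930, 2961 and 2793 in the Pear1-/- libraries given vehicle, against 405, 425 and 454 and 391, 428 and 403 in those given bleo. All 6 vehicle libraries lay far above all 6 bleo libraries, and within *WT* vehicle the second replicate lay at the level of the Pear1-/- vehicle group. *Ptch1* (ENSMUSG00000021466; chromosome 13, 63508328 to 63573598, minus strand) had 546, 301 and 475 normalized counts in the *WT* and 279, 326 and 289 in the Pear1-/- libraries given vehicle, against 201, 203 and 181 and 173, 150 and 158 in those given bleo. Here too *WT* vehicle replicate 2 fell inside the range of the Pear1-/- vehicle group, while every bleo library lay below every vehicle library. *Smo* (ENSMUSG00000001761; chromosome 6, 29735503 to 29761365, plus strand) had 252, 224 and 214 normalized counts in the *WT* and 159, 204 and 180 in the Pear1-/- libraries given vehicle, against 195, 191 and 195 and 214, 255 and 247 in those given bleo. Its 4 groups spanned a far narrower range than those of *Hhip*.

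Among the transcription factors, *Gli1* (ENSMUSG00000025407; chromosome 10, 127329882 to 127341974, minus strand) had 249, 204 and 177 normalized counts in the *WT* and 197, 203 and 218 in the Pear1-/- libraries given vehicle, against 62.5, 64.3 and 48.6 and 77.3, 79.9 and 83.9 in those given bleo. The vehicle groups overlapped, both bleo groups lay well below them, and the bleo groups did not overlap each other. *Gli2* (ENSMUSG00000048402; chromosome 1, 118834132 to 119053619, minus strand) had 224, 225 and 213 normalized counts in the *WT* and 232, 190.2 and 265 in the Pear1-/- libraries given vehicle, against 112, 120.3 and 96.2 and 164, 148 and 148 in those given bleo. As for *Gli1*, the vehicle groups overlapped and the bleo groups lay below them without overlapping each other, at a smaller distance. *Gli3* (ENSMUSG00000021318; chromosome 13, 15463235 to 15730026, plus strand) had 129.8, 93.4 and 106 normalized counts in the *WT* and 99.4, 83.5 and 96.0 in the Pear1-/- libraries given vehicle, against 90.9, 74.4 and 82.0 and 143, 176 and 154 in those given bleo. It was the only member whose 3 Pear1-/- bleo libraries lay above the other 9 libraries. *Gli1* shares 265 exonic bases with the antisense gene *Gm47200* and 62 with *Arhgap9*, *Gli3* shares 188 with *Gm6556*, and *Hhip* shares 175 with *Gm27820*, all on the opposite strand. The sources do not state that strand was used in counting, so reads from these overlaps cannot be told apart.

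**Figure D1:**
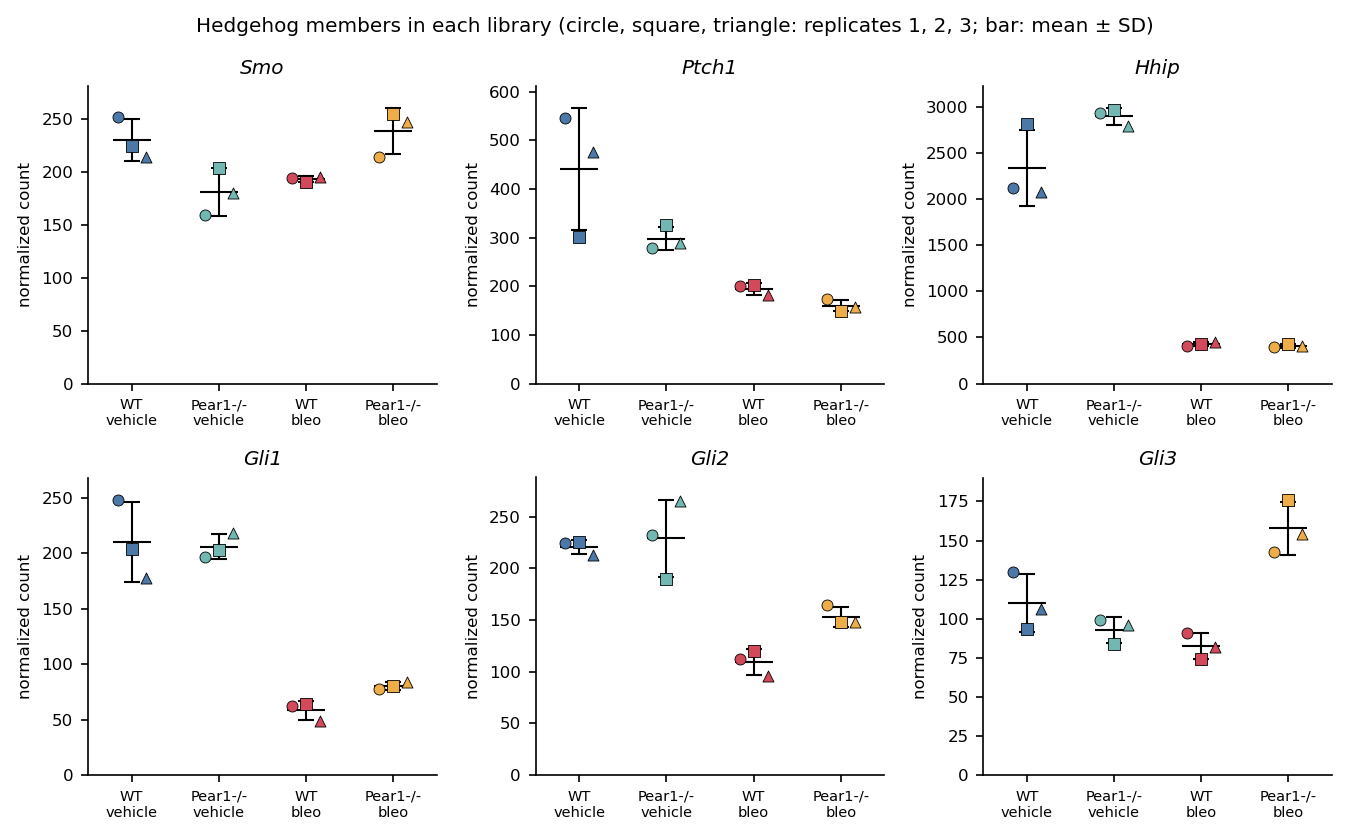
Each panel plots the normalized counts of 1 member on the vertical axis for the 12 libraries, in 4 groups, with circles, squares and triangles for replicates 1, 2 and 3 and a bar for the mean ± SD (n = 3). *Hhip* dropped from between 2077 and 2961 in the vehicle libraries to between 391 and 454 in the bleo libraries, and *Gli3* was highest in Pear1-/- bleo, at between 143 and 176.

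To compare levels between genes, CPM were divided by the exonic length of each gene in kilobases. On this scale *Hhip* reached 29.0 ± 4.95 CPM per kb in *WT* vehicle (SD, n = 3), followed by *Gli1* at 4.73 ± 0.808, *Smo* at 4.61 ± 0.395, *Gli2* at 3.62 ± 0.0998, *Ptch1* at 3.50 ± 1.01 and *Gli3* at 1.29 ± 0.219. Neighbours from *Gli1* to *Smo* and from *Gli2* to *Ptch1* differed by less than their spread. In *WT* bleo the order was *Hhip* at 5.35 ± 0.318 CPM per kb, *Smo* at 3.91 ± 0.0564, *Gli2* at 1.81 ± 0.199, *Ptch1* at 1.56 ± 0.0929, *Gli1* at 1.33 ± 0.192 and *Gli3* at 0.976 ± 0.0971, in which the range of *Ptch1* overlapped those of *Gli2* and *Gli1*. *Gli1* thus stood next to *Hhip* in *WT* vehicle and next to last in *WT* bleo. In Pear1-/- bleo *Hhip*, at 5.05 ± 0.236 CPM per kb, and *Smo*, at 4.78 ± 0.424, overlapped, and *Gli3*, at 1.85 ± 0.198, overlapped *Gli1*, at 1.81 ± 0.0651. *Gli2* lay between these pairs, at 2.51 ± 0.166 CPM per kb, and *Ptch1* was lowest, at 1.27 ± 0.0980. In Pear1-/- vehicle the order was *Hhip* at 35.8 ± 1.07 CPM per kb, *Gli1* at 4.63 ± 0.249, *Gli2* at 3.74 ± 0.618, *Smo* at 3.61 ± 0.447, *Ptch1* at 2.36 ± 0.190 and *Gli3* at 1.09 ± 0.0992, with *Gli2* and *Smo* closer than their spread.

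In the *WT* libraries most members were lower with bleomycin. Between *WT* bleo and *WT* vehicle, *Hhip*, *Gli1*, *Gli2*, *Ptch1* and *Gli3* were lower, which is 5 of the 6 members, and none was higher. By edgeR's quasi-likelihood test with Benjamini-Hochberg adjustment, 67.9% of all tested genes passed an adjusted p of 0.05 in this comparison, 36.5% in the lower and 31.4% in the higher direction, so single calls were common among all genes. *Hhip* was 5.41-fold lower, at a log2 fold change of -2.44 (standard error, SE, 0.10, adjusted p = 8.91e-14). *Gli1* was 3.55-fold lower, at -1.83 (SE 0.14, adjusted p = 1.83e-09). *Ptch1* was 2.23-fold lower, at -1.16 (SE 0.17, adjusted p = 1.95e-05), and these 3 were the members past a fold of 2, a mark that 23.3% of tested genes passed in the lower direction. Without *WT* vehicle replicate 2, the log2 fold changes were -2.22 for *Hhip*, -1.78 for *Gli1*, -1.31 for *Ptch1*, -0.92 for *Gli2*, -0.43 for *Gli3* and -0.19 for *Smo*. The same 5 members passed the threshold there, in a fit that called 15597 genes in all, against 11834 with that library. *Gli2* changed by -0.999 (SE 0.13, adjusted p = 1.42e-06). *Gli3* changed by -0.39 (SE 0.15, adjusted p = 0.029). It stood at -0.25 (adjusted p = 0.179) without *WT* vehicle replicate 1, at -0.28 (adjusted p = 0.151) without *WT* bleo replicate 2 and at -0.35 (adjusted p = 0.0867) without *WT* bleo replicate 3. *Smo*, at -0.24 (SE 0.11), had an adjusted p = 0.0625. The groups did not overlap for any of the 6 members, nor for 68.8% of all tested genes. The median over the members was -1.08, beside -0.07 over all tested genes. In the same comparison 12 of the 14 leukocyte markers were higher and 1 lower, 7 of 7 endothelial and 4 of 5 mesothelial markers were lower, and *Pdgfra* changed by -1.74 (adjusted p = 4.53e-14), and their part in the falls of the members was not tested.

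In the libraries labelled Pear1-/-, bleomycin split the members. *Hhip*, *Gli1*, *Ptch1* and *Gli2* were lower in Pear1-/- bleo than in Pear1-/- vehicle, while *Gli3* and *Smo* were higher. All 6 members passed the test, as did 62.2% of all tested genes, 33.1% in the lower and 29.1% in the higher direction. *Hhip* was 7.08-fold lower, at a log2 fold change of -2.82 (SE 0.10, adjusted p = 1.87e-14), and *Gli1* was 2.55-fold lower, at -1.35 (SE 0.14, adjusted p = 7.33e-08). *Ptch1* changed by -0.89 (SE 0.17, adjusted p = 0.000352) and *Gli2* by -0.57 (SE 0.12, adjusted p = 0.000434). In the other direction, *Gli3* rose 1.70-fold, at 0.77 (SE 0.14, adjusted p = 0.00012), and *Smo* rose 1.32-fold, at 0.40 (SE 0.11, adjusted p = 0.00322). No member's groups overlapped, nor did those of 70.9% of all tested genes. These 6 calls held under every alternative setting run, including the removal of any 1 library of the 2 groups. Beside them, 10 of the 14 leukocyte markers were higher and 1 lower, 7 of 7 endothelial and 3 of 5 mesothelial markers were lower, and *Pdgfra* changed by -0.80 (adjusted p = 5.16e-09). Their part in the result was not tested.

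**Figure D2:**
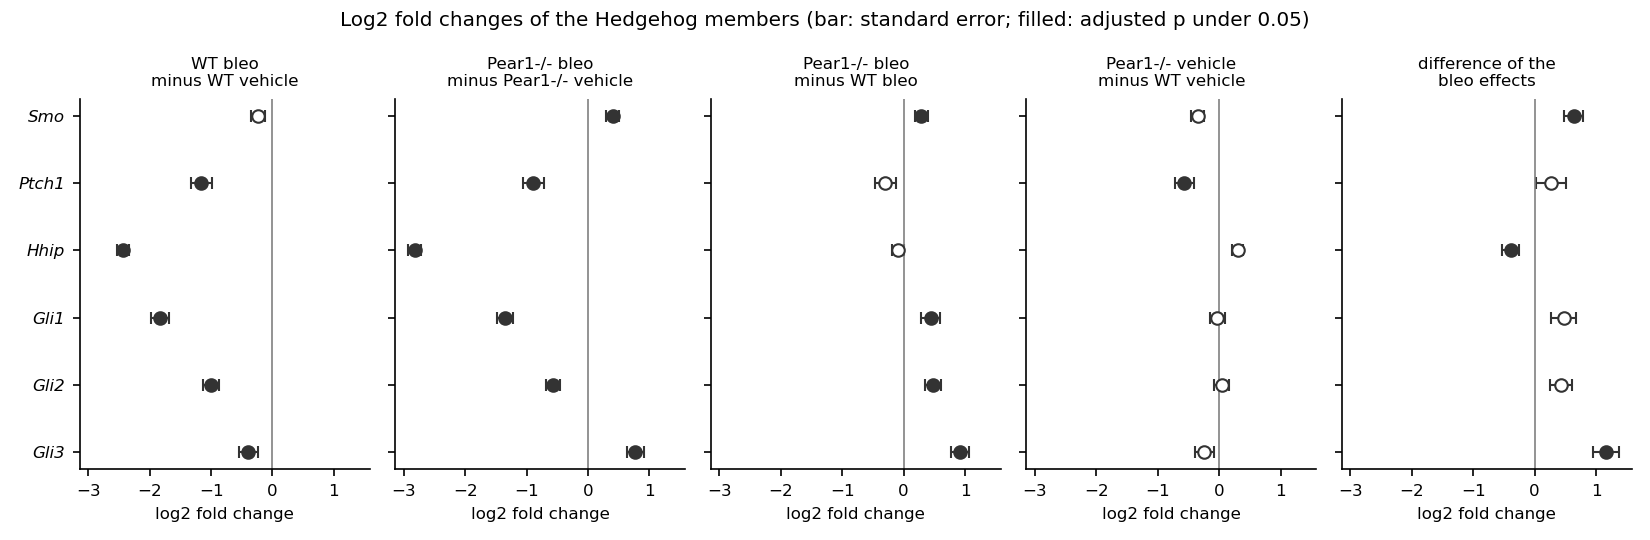
Each panel plots, for 1 comparison, the log2 fold change (horizontal axis) of the 6 members with its standard error, filled where the adjusted p was under 0.05. *Hhip* and *Gli1* lie far to the left in both bleo against vehicle panels (-2.44 and -1.83 in *WT*, -2.82 and -1.35 in Pear1-/-), whereas *Gli3* lies at -0.39 in the first and at 0.77 in the second.

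After bleomycin, the 2 genotypes as labelled differed in the GLI genes and *Smo*. *Gli3*, *Gli2*, *Gli1* and *Smo* were higher in Pear1-/- bleo than in *WT* bleo, 4 of the 6 members, where 46.1% of all tested genes passed in either direction, 22.1% in the higher and 24% in the lower one. *Gli3* was 1.89-fold higher, at a log2 fold change of 0.92 (SE 0.14, adjusted p = 3.17e-05). *Gli2* differed by 0.47 (SE 0.13, adjusted p = 0.00572), *Gli1* by 0.44 (SE 0.16, adjusted p = 0.0265) and *Smo* by 0.29 (SE 0.11, adjusted p = 0.033). *Hhip*, at -0.08 (SE 0.10, adjusted p = 0.515), and *Ptch1*, at -0.30 (SE 0.18, adjusted p = 0.187), did not pass. Without *WT* bleo replicate 3, *Gli3* was the 1 member called, in a fit that called 6621 genes in all, against 8037 with that library. There 3 members had an unadjusted p under 0.05 by edgeR's test. *Gli1* and *Smo* also lost the call without Pear1-/- bleo replicate 2 or 3 (adjusted p between 0.0726 and 0.186), *Gli1* without Pear1-/- bleo replicate 1 (adjusted p = 0.056), and *Smo* without *WT* bleo replicate 1 or 2 (adjusted p = 0.103 and 0.125). Beside these differences, the summed leukocyte markers were lower in Pear1-/- bleo than in *WT* bleo, 12 of the 14 by test and none higher, and 6 of 10 epithelial markers were lower and 1 higher. Of the 7 smooth muscle markers 5 were higher and 1 lower, of the 15 fibroblast markers 8 and 2, and of the 5 mesothelial markers 3 were higher. The log2 level of *Pdgfra* was higher by 0.80 (SE 0.07, adjusted p = 1.04e-08). Their part in the result was not tested.

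Between the vehicle groups, *Ptch1* was the 1 member of 6 past the threshold, lower in Pear1-/- vehicle at -0.56 on the log2 scale (SE 0.16, adjusted p = 0.0475), where 7.24% of tested genes passed in either direction, 5.29% in the lower and 1.95% in the higher one. The groups overlapped for *Ptch1* through *WT* vehicle replicate 2. *Hhip*, at 0.30 (SE 0.09, adjusted p = 0.0507), and *Smo*, at -0.35 (SE 0.11, adjusted p = 0.0559), lay near the threshold, and *Gli1*, at -0.03, *Gli2*, at 0.04, and *Gli3*, at -0.24, had adjusted p of 0.882, 0.821 and 0.276. Which libraries were included decided these calls. Without *WT* vehicle replicate 2, *Ptch1* differed by -0.71 (adjusted p = 5.14e-09), *Hhip* by 0.53 (adjusted p = 4.78e-11) and *Smo* by -0.29 (adjusted p = 0.0273), in a comparison that then called 11281 genes in all, while *Gli1* (0.022), *Gli2* (0.13) and *Gli3* (-0.28) did not pass. When 1 of the other 5 vehicle libraries was left out instead, edgeR's test called 0 of all tested genes and so 0 members, with between 2961 and 5876 genes, 2 or 3 members among them, at an unadjusted p under 0.05.

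The 2 responses to bleomycin were compared by the interaction term, the log2 fold change in Pear1-/- minus that in *WT*. It was 1.16 for *Gli3* (SE 0.21, adjusted p = 0.00024), 0.64 for *Smo* (SE 0.15, adjusted p = 0.003) and -0.39 for *Hhip* (SE 0.14, adjusted p = 0.03), so that 3 of the 6 members passed where 37.1% of tested genes did, 17.8% with a positive and 19.3% with a negative term. *Gli3* moved in opposite directions in the 2 genotypes as labelled, by -0.39 in *WT* and 0.77 in Pear1-/-. The *WT* call was lost in 5 of 14 alternative settings. *Hhip* fell in both, further in Pear1-/-, and its Pear1-/- vehicle level was the higher one. The terms of *Gli1* (0.47, adjusted p = 0.071), *Gli2* (0.43, adjusted p = 0.0628) and *Ptch1* (0.27, adjusted p = 0.408) did not pass. Without *WT* vehicle replicate 2 the term was -0.62 for *Hhip* (adjusted p = 3.45e-08), 0.40 for *Ptch1* (adjusted p = 0.013), 1.19 for *Gli3* (adjusted p = 1.28e-06) and 0.57 for *Smo* (adjusted p = 0.00135), and those of *Gli1* (0.41) and *Gli2* (0.33) did not pass. That fit called 9463 genes in all for the term, against 6462 with the library. Without any one of 8 other libraries the *Hhip* term had an adjusted p between 0.059 and 0.0903. The term of *Gli1* passed without *WT* vehicle replicate 3 (0.58, adjusted p = 0.029), and that of *Gli2* without Pear1-/- vehicle replicate 3 (0.49, adjusted p = 0.0399). Over all 19 alternative settings the term lay between 0.30 and 0.58 for *Gli1*, between 0.25 and 0.49 for *Gli2* and between 0.08 and 0.40 for *Ptch1*.

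Ratios of 2 genes within a library do not depend on its depth, and were formed from CPM per kb after the members' values had been seen. In all, 9 ratios were tested in 4 comparisons, and none of the 36 tests had a Benjamini-Hochberg adjusted p under 0.171. *Gli3*, the GLI gene whose protein is mainly a repressor, stood at 0.274 ± 0.0371 of *Gli1* in the *WT* and 0.235 ± 0.0250 in the Pear1-/- libraries given vehicle (SD, n = 3), against 0.747 ± 0.138 and 1.02 ± 0.108 in those given bleo. The ratio was 2.72-fold higher in *WT* bleo than in *WT* vehicle and 4.35-fold higher in Pear1-/- bleo than in Pear1-/- vehicle, without overlap, each with p = 0.1 by a two-sided exact permutation test, which is the smallest p that 3 against 3 libraries allow. *Gli2* per *Gli1* was 0.777 ± 0.110 with vehicle and 1.37 ± 0.0675 with bleo in *WT* (exact permutation p = 0.1) and 0.807 ± 0.110 and 1.39 ± 0.139 in Pear1-/- (exact permutation p = 0.1), and the 2 bleo groups overlapped.

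Set against *Pdgfra*, the gene of the sorting marker, the members differed. With bleo *Hhip* stood lower and *Gli3* and *Smo* higher in both genotypes as labelled, *Gli2* and *Ptch1* stood higher in *WT* and overlapped their vehicle groups in Pear1-/-, and *Gli1* in *WT* overlapped its vehicle group. *Gli1* per *Pdgfra* was 0.0924 ± 0.0147 in *WT* vehicle and 0.0864 ± 0.0144 in *WT* bleo (SD, n = 3), overlapping, with an exact permutation p = 0.5. In the libraries labelled Pear1-/- it was 0.0993 ± 0.00601 with vehicle and 0.0674 ± 0.00279 with bleo, without overlap (exact permutation p = 0.1). *Hhip* per *Pdgfra* was 0.572 ± 0.145 with vehicle and 0.347 ± 0.0141 with bleo in *WT*, and 0.767 ± 0.0171 and 0.188 ± 0.0102 in Pear1-/-, without overlap in either (exact permutation p = 0.1 for each). Its value in *WT* vehicle replicate 2 was 0.739, against 0.488 in each of the other two libraries of that group. *Ptch1* per *Pdgfra* was higher in *WT* bleo, at 0.101 ± 0.00838, than in *WT* vehicle, at 0.0675 ± 0.0152 (exact permutation p = 0.1), and was 0.0506 ± 0.00379 and 0.0474 ± 0.00324 in Pear1-/- vehicle and bleo, which overlapped (exact permutation p = 0.4). *Gli3* per *Pdgfra* was 2.53-fold higher in *WT* bleo and 2.96-fold higher in Pear1-/- bleo than with vehicle, and *Smo* per *Pdgfra* was 2.82-fold and 2.30-fold higher. Between the bleo groups, *Gli3* per *Pdgfra* overlapped (0.0634 ± 0.00638 in *WT*, 0.0690 ± 0.00793 in Pear1-/-; exact permutation p = 0.4). *Gli2* per *Pdgfra* was 1.66-fold higher in *WT* bleo than in *WT* vehicle (0.0709 ± 0.00655; exact permutation p = 0.1), and in Pear1-/- bleo it overlapped Pear1-/- vehicle (0.0804 ± 0.0139; exact permutation p = 0.3). It was lower in Pear1-/- bleo (0.0935 ± 0.00545) than in *WT* bleo (0.118 ± 0.0156), opposite in direction to its normalized counts (exact permutation p = 0.1). *Smo* per *Pdgfra* was 0.178 ± 0.0172 in Pear1-/- bleo and 0.254 ± 0.00380 in *WT* bleo, again the reverse of the order of its counts. *Pdgfra* is itself a gene that changed, so such a ratio is not a level per Pdgfra+ cell.

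**Figure D3:**
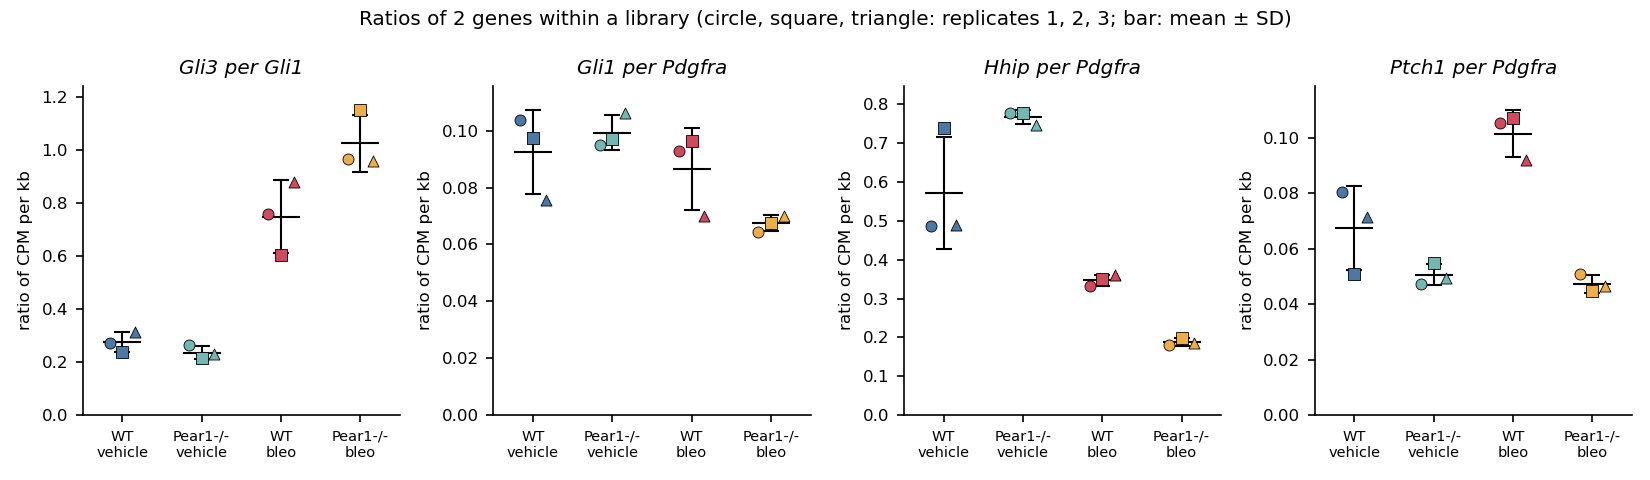
Each panel plots the ratio of 2 genes, from CPM per kb, on the vertical axis for the 12 libraries in 4 groups, with circles, squares and triangles for replicates 1, 2 and 3 and a bar for the mean ± SD (n = 3). *Gli3* per *Gli1* lies between 0.214 and 0.313 with vehicle and between 0.604 and 1.15 with bleo, whereas *Gli1* per *Pdgfra* overlaps between *WT* vehicle and *WT* bleo.

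The other genes of the pathway, 41 in 5 lists ordered by role, were read in the same fit. The ligands themselves were barely detected. *Shh* had between 0 and 8 counts per library, *Ihh* between 0 and 7 and *Dhh* between 2 and 13, and all 3 were removed by the filter on low counts. Of the 6 tested genes of ligand release, 1 was higher and 3 were lower in *WT* bleo than in *WT* vehicle, and 3 were higher and 1 lower in Pear1-/- bleo than in Pear1-/- vehicle. In both, 4 of 6 passed, close to the 67.9% and 62.2% of all tested genes that did. *Scube1*, of the family of secreted proteins that take part in the release of Hedgehog ligands, rose from 220, 191 and 219 normalized counts in *WT* vehicle to 454, 420.2 and 466 in *WT* bleo, and from 198, 198 and 217 in Pear1-/- vehicle to 984, 968 and 963 in Pear1-/- bleo. Its groups with bleo stood clear of those with vehicle and of each other, with log2 fold changes of 1.10 (SE 0.08, adjusted p = 1.1e-09) in *WT* and 2.26 (SE 0.08, adjusted p = 2.6e-14) in Pear1-/-. *Scube2*, which releases lipid-modified ligand, was lower in *WT* bleo by -1.45 (SE 0.26, adjusted p = 0.00072), as were *Scube3* (-1.27) and *Disp1* (-0.38), the gene of the ligand exporter, and 4 and 5 of 14 alternative settings ended these last calls, in that order. Without *WT* vehicle replicate 2, *Disp1* stood at -0.23. In Pear1-/-, *Hhat*, which attaches palmitate to the ligand, was higher by 1.22 (adjusted p = 2.5e-06) and *Disp2* by 1.15 (adjusted p = 0.0047), while *Scube3* stood at -1.67 (adjusted p = 0.0044). Between the bleo groups *Scube1*, at 1.11 (adjusted p = 7.7e-10), and *Hhat*, at 0.67 (adjusted p = 0.0014), were higher in Pear1-/-.

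All 4 co-receptor genes, whose products help PTCH1 bind ligand, were lower with bleo in both genotypes as labelled, each in *WT* by more than 2-fold, with a list median of -1.85 in *WT* and -1.52 in Pear1-/- beside -0.07 and -0.05 over all tested genes, of which 36.5% and 33.1% were called lower. *Boc*, the gene of a cell-surface protein of the immunoglobulin superfamily, had 1586, 1341 and 1446 normalized counts in the *WT* and 1356, 1252 and 1551 in the Pear1-/- libraries given vehicle, against 417, 347 and 371 and 400.5, 395 and 404 in those given bleo. The vehicle groups overlapped, and so did the bleo groups, far below them. Its log2 fold change with bleo was -1.93 in *WT* (SE 0.09, adjusted p = 9.4e-13) and -1.79 in Pear1-/- (SE 0.09, adjusted p = 4.2e-12). *Lrp2* changed by -2.11 in *WT* and -1.24 in Pear1-/-, *Cdon* by -1.76 and -1.99, and *Gas1* by -1.53 and -0.75. *Gas1* was the 1 gene of the 4 that differed between the bleo groups, higher in Pear1-/- by 0.94 (SE 0.07, adjusted p = 3.2e-09), with 575, 582 and 568 normalized counts in *WT* bleo against 1069.97, 1102 and 1162 in Pear1-/- bleo. Between the vehicle groups, *Lrp2* (-1.08, adjusted p = 0.039) was lower in Pear1-/-. Of the other lists, *Disp2* (-1.37, adjusted p = 0.032) and *Ift88* (-0.53, adjusted p = 0.05) were lower there and *Bcl2* (0.41, adjusted p = 0.04) higher. Between 6 and 11 of 14 alternative settings ended each of these 4 calls. Without *WT* vehicle replicate 2 all 4 held, with log2 fold changes of -1.25 for *Lrp2*, -1.47 for *Disp2*, -0.57 for *Ift88* and 0.68 for *Bcl2*.

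The 13 genes of signal transduction act on SMO, on the GLI proteins or between them, and some, such as *Sufu*, restrain the pathway. Of these, 7 were lower and 2 higher in *WT* bleo, with a median of -0.42, and 3 were lower and 2 higher in Pear1-/- bleo, with a median of -0.10. The 9 of 13 that passed in *WT* were close to the 67.9% of all tested genes, and the 5 of 13 in Pear1-/- were below the 62.2% there. *Evc* and *Evc2*, whose products form a complex at the base of the cilium that SMO needs, fell by 1.79 and 1.67 on the log2 scale in *WT* and by 1.16 and 1.17 in Pear1-/-. *Stk36*, a kinase of the pathway, changed by -1.63 in *WT*, and *Kif7*, a ciliary kinesin of the pathway, by -1.41. *Grk2*, the gene of a kinase that phosphorylates SMO and many other receptors, rose by 1.34 in *WT* (SE 0.10, adjusted p = 6.4e-10) and had 0.16 in Pear1-/- (adjusted p = 0.17). *Sufu*, whose product binds and restrains GLI proteins, was lower in *WT* bleo by -0.54 (SE 0.09, adjusted p = 1.6e-05) and stood at -0.12 in Pear1-/- (adjusted p = 0.23). In Pear1-/-, *Gpr161*, the gene of a ciliary receptor that favours the repressor form of GLI3, was higher by 1.87 (adjusted p = 0.0038) and *Csnk1a1*, a GLI kinase, by 0.48. Between the bleo groups, 6 of the 13 genes were higher and 2 lower in Pear1-/-, where 22.1% of all tested genes were higher and 24% lower. *Kif7* stood at 1.27 (adjusted p = 0.0022), *Grk2* at -1.05 (adjusted p = 4.2e-08) and *Prkaca*, the gene of a catalytic subunit of protein kinase A, at -0.75. *Tulp3*, which carries receptors into the cilium, stood at 0.73, and *Sufu* at 0.31 (adjusted p = 0.0051). *Grk2* stood at 391 ± 62.5 and 433 ± 49.9 normalized counts in the *WT* and Pear1-/- libraries given vehicle, against 987 ± 47.5 and 481 ± 8.74 in those given bleo (SD, n = 3). The summed leukocyte markers were highest in *WT* bleo too, and higher in Pear1-/- bleo than in Pear1-/- vehicle. Their part in the values of *Grk2* was not tested.

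Of 8 genes needed to build the primary cilium, the organelle in which SMO meets the GLI proteins, 7 were lower and 0 higher in *WT* bleo by edgeR's test, with a median of -0.52, and 6 were lower and 1 higher in Pear1-/- bleo, with a median of -0.35. Of all tested genes, 36.5% were lower and 31.4% higher in the first comparison and 33.1% and 29.1% in the second, with medians of -0.07 and -0.05. *Dync2h1*, the motor of retrograde ciliary transport, changed by -1.10 in *WT* (adjusted p = 1.5e-07) and -0.34 in Pear1-/-, and was higher in Pear1-/- bleo than in *WT* bleo by 0.50 (adjusted p = 0.0022), the 1 gene of the list that was. *Ift172* changed by -0.73 in *WT* and -0.58 in Pear1-/-, and *Arl13b*, a ciliary GTPase, by -0.60 and -1.10, the former -0.30 without *WT* vehicle replicate 2. *Ift88*, at -0.58 in *WT*, stood at -0.18 in Pear1-/- (adjusted p = 0.36). *Rpgrip1l* changed by -0.66 in Pear1-/-, a call that 3 of 14 alternative settings ended, and *Ift122*, the 1 gene called higher there, by 0.39 (adjusted p = 0.042), a call that 8 of 14 alternative settings ended.

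Of 7 known or proposed targets outside the members, 1 was higher and 2 were lower in *WT* bleo, where 67.9% of all tested genes passed, and 2 were higher and 4 lower in Pear1-/- bleo, where 62.2% did. *Foxl1*, a mesenchymal forkhead factor that responds to Hedgehog, had 228, 142 and 239 normalized counts in the *WT* and 163, 166 and 200 in the Pear1-/- libraries given vehicle, against 26.6, 35.7 and 37.5 and 32.0, 29.2 and 33.4 in those given bleo. All bleo libraries lay far below all vehicle libraries, with log2 fold changes of -2.60 in *WT* (SE 0.20, adjusted p = 1.5e-09) and -2.47 in Pear1-/- (SE 0.20, adjusted p = 4e-09). Without *WT* vehicle replicate 2, the lowest of its group, the former was -2.74. *Foxf1*, a factor of lung mesenchyme, changed by -0.85 in *WT* and -0.99 in Pear1-/-. *Ccnd1*, the cyclin D1 gene, which many mitogens induce, went the other way, by 1.55 in *WT* (SE 0.08, adjusted p = 4.9e-12) and 1.51 in Pear1-/- (SE 0.08, adjusted p = 8.7e-12). In Pear1-/-, *Mycn* changed by -1.15 (adjusted p = 0.03, lost in 4 of 14 alternative settings), *Bcl2* by -1.05 (adjusted p = 3.1e-07) and *Foxf2* by 0.53 (adjusted p = 0.00043). Between the bleo groups, *Bcl2* was lower by -0.75 and *Foxf2* and *Ccnd2* higher by 0.44 and 0.27 in Pear1-/-.

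**Figure D4:**
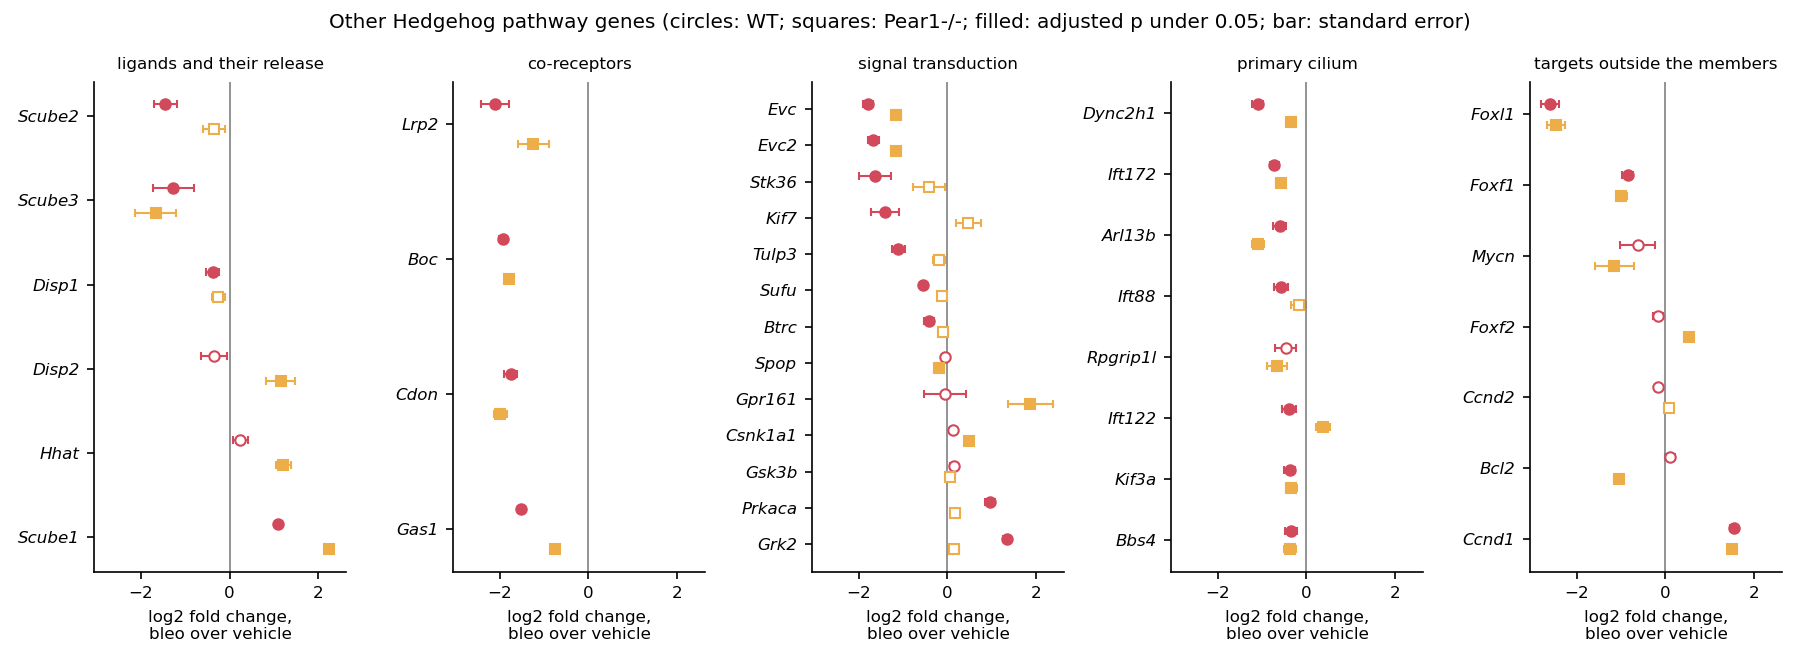
Each panel holds 1 role in the pathway and plots the log2 fold change of bleo over vehicle (horizontal axis) with its standard error for each tested gene, as circles for *WT* and squares for Pear1-/-, filled where the adjusted p was under 0.05. All 4 genes of the co-receptor panel lie left of 0 in both, and *Foxl1* and *Ccnd1* stand at opposite ends of the target panel (-2.60 and 1.55 in *WT*).

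The genes whose log2 CPM ran most like those of each member over the 12 libraries were sought among 10697 genes whose log2 CPM averaged at least 3. For *Hhip* these were *4930523C07Rik* and *C1s1* (Pearson r of 0.999 and 0.998), for *Gli1* *Slc43a3* and *Vldlr* (0.990 and 0.989), and for *Gli2* *Spint2* and *Prkd1* (0.988 and 0.982). *Ptch1* ran most like *Hykk* and *Bmp3* (0.981 and 0.980), *Gli3* most like *Steap2* and *Flot2* (0.964 and 0.963), and *Smo* most like *Fbxo28* and *Tamm41* (0.916 and 0.840). Among the members themselves, r was 0.951 between *Gli1* and *Hhip*, 0.947 between *Gli1* and *Gli2*, 0.821 between *Gli1* and *Ptch1*, 0.687 between *Gli3* and *Smo*, and -0.05 between *Gli1* and *Gli3*. The 12 points share 4 groups and the split between vehicle and bleo, so r mostly restates the group means, and no p is given.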

How the data were processed

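RNA of sorted CD140a+ lung cells was amplified with the SMART-Seq v4 kit, and the authors aligned paired reads to mouse GRCm38 (mm10) with HISAT2. The submitters' processing notes also name FastQC. Aligned reads were assigned to an mm10 transcriptome. The counting program, the annotation release and the strand setting were not given in the sources used here. The authors deposited raw read counts per gene and, separately, a normalized signal, which in the file is each count divided by 1 size factor per library, called normalized counts here. Counts entered edgeR 4.0.16 (R 4.3.3) with filterByExpr, TMM scaling, 1 mean per group over all 12 libraries, and robust quasi-likelihood tests, two-sided, with Benjamini-Hochberg adjustment over 17418 genes. A call is an adjusted p under 0.05. A fitted standard error is the log2 fold change over the root of its F statistic. The code was tested on simulated counts. DESeq2 1.42.0 and limma 3.58.1 (on log2 of the deposited normalized values) were alternatives. Exonic lengths came from GENCODE M21 and promoters from RefSeq. *Grk2* is listed under its older symbol and was matched by identifier. The members and gene lists were chosen with earlier results of these data known. Named in the text are all members, in each other pathway list up to 4 called genes per comparison in order of size, *Shh*, *Ihh*, *Dhh* and *Sufu* in any case, and 6 cell type markers. Values of a gene so named are at times given for other comparisons too, where it ranked lower or was not called. Such further values were not run under the alternative settings. *Cdh1* was added after its values were seen. 1 gene was left out of the pathway lists and their counts, and is not reported here. Other cell types were followed with marker lists. Replicate numbers did not pair the libraries, since the deviations of 18 same-numbered pairs from their group means had r between -0.161 and 0.0997. Counting intervals and the floor of 3 counts cover counting error only.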

Additional observations from a re-analysis of the deposited data

Results flagged for a closer look

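Among the genes named, those below responded differently to bleo in the 2 genotypes as labelled, by the interaction term of edgeR's quasi-likelihood test (log2 fold change in Pear1-/- minus that in *WT*, adjusted over 17418 genes), a term that 37.1% of all tested genes passed. Of the members, *Gli3* had 1.16 (adjusted p = 0.00024), *Smo* 0.64 (adjusted p = 0.003) and *Hhip* -0.39 (adjusted p = 0.03). In the release of ligands, *Disp2* had 1.503 (adjusted p = 0.0114), *Scube1* 1.15 (adjusted p = 3.93e-07), *Scube2* 1.10 (adjusted p = 0.0415) and *Hhat* 0.97 (adjusted p = 0.00288). Among co-receptors, *Gas1* had 0.78 (adjusted p = 5.85e-06). In signal transduction, *Gpr161* had 1.92 (adjusted p = 0.0379), *Kif7* 1.88 (adjusted p = 0.00173), *Grk2* -1.19 (adjusted p = 2.38e-06), *Tulp3* 0.93 (adjusted p = 0.00122) and *Sufu* 0.43 (adjusted p = 0.00826). In the cilium, *Ift122* had 0.77 (adjusted p = 0.0119) and *Dync2h1* 0.76 (adjusted p = 0.0013). Of the targets, *Bcl2* had -1.16 (adjusted p = 1.88e-05) and *Foxf2* 0.71 (adjusted p = 0.00201). *Gpr161*, *Disp2* and *Kif7* were low in all groups, *Gpr161* at between 5.20 and 19.3 normalized counts as group means. Leaving out 1 library, changing the filter or the tool ended the call for *Gpr161* in 12 of 19 settings and for *Scube2* in 10 of 19. The call for *Hhip* ended in 8 of 19 settings and that for *Sufu* in 5 of 19. The leukocyte markers had negative terms as well, 13 of 14 past the threshold, and *Pdgfra* had 0.94 (adjusted p = 2.96e-07). Their part in the values above was not tested.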

How the results depend on the processing

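Over 450 alternative values of the members, 398 kept direction and side of the threshold, 34 lost the call, 12 gained it and 6 changed sign. The sign changes all concerned values near 0 between the vehicle groups. *Gli1* gave 0.066 with no filter on low counts and between -0.13 and 0.10 with 1 library left out, and *Gli2* gave between -0.030 and 0.21 with 1 library left out. The number of members called between the vehicle groups, 1 as reported, moved with the number of all genes called, 1261 as reported. It was 2 with DESeq2 (1484 genes) and with no filter on low counts (5676 genes), and 0 with limma on the deposited normalized values (252 genes), with only the compared groups in the fit (0 genes by edgeR, 3189 at an unadjusted p under 0.05) and without robust moderation (784 genes), the last added after seeing the data. In each of these, 3 members had an unadjusted p under 0.05. Leaving out 1 library gave between 0 and 3 members there and between 1 and 3 members, of 4 as reported, between the bleo groups. In the latter case between 6530 and 6621 genes were called in all, against 8037 as reported. The replicate numbers did not pair the libraries. With the replicate block, 1 member was called between the vehicle groups, *Hhip* (adjusted p = 0.043) in place of *Ptch1* (adjusted p = 0.0506), and no other call on a member changed. Outside the vehicle comparison and the removal of libraries, 4 calls on members were lost. They were *Smo* between the bleo groups with DESeq2 (adjusted p = 0.0547) and with no filter (0.0618), and *Gli3* in *WT* with no filter (0.168) and with the compared groups alone (0.0501). Gained there were *Smo* in *WT* with DESeq2's scaling in edgeR (0.0386), the stricter filter (0.0439) and the compared groups alone (0.0478), and *Ptch1* between the bleo groups fitted alone (0.0051). Of 1364 alternative values of other named genes, 1253 kept the call, 111 lost it and 0 changed sign. At between 48 and 297 counts per library, *Gli1*, *Gli2*, *Gli3* and *Smo* carried larger counting errors than *Hhip*, at between 417 and 3192.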

Other observations

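Smooth muscle genes, which Hedgehog signals are known to support in lung mesenchyme, moved in both directions after bleomycin. *Myh11*, the smooth muscle myosin heavy chain gene, had 706 ± 94.3 and 631 ± 16.2 normalized counts in the *WT* and Pear1-/- libraries given vehicle (SD, n = 3), against 124 ± 9.16 and 94.1 ± 11.5 in those given bleo, with log2 fold changes of -2.50 in *WT* and -2.74 in Pear1-/- (edgeR's quasi-likelihood test, adjusted p = 2.72e-13 and 1.53e-13). *Acta2*, the smooth muscle actin gene, had 3046 ± 96.6 and 3041 ± 218 normalized counts with vehicle, in the same order, against 2689 ± 38.1 and 7807 ± 47.4 with bleo, a log2 fold change of 1.36 in Pear1-/- (adjusted p = 1.5e-12). In *WT* its log2 fold change was -0.17 (adjusted p = 0.0269), a call that 6 of 14 alternative settings ended, and -0.078 without *WT* vehicle replicate 2, so that both genes were lower in *WT* and stood in opposite directions in Pear1-/-. Of the 7 smooth muscle markers, 2 were higher and 4 lower in *WT* bleo, and 4 were higher and 3 lower in Pear1-/- bleo. The epithelial markers, of the lung's main source of Hedgehog ligands, were mostly lower with bleo, 8 of 10 in *WT* and 9 of 10 in Pear1-/-. The others were called higher, *Cdh1*, the E-cadherin gene, in both (0.90 in *WT* and 1.26 in Pear1-/-) and *Epcam* in *WT* (0.36, adjusted p = 0.0107, and 0.57 without *WT* vehicle replicate 2), and *Cdh1* was named after its values were seen. Their summed level was between 4387 and 6990 CPM over the vehicle libraries, between 1688 and 1720 CPM in *WT* bleo and between 754 and 762 CPM in Pear1-/- bleo, and *Epcam*, between 14.6 and 25.9 CPM in every library, was not at 0 in any. *Pecam1*, an endothelial marker, was lower with bleo by -0.54 in *WT* (adjusted p = 5.77e-06) and -0.76 in Pear1-/- (adjusted p = 7.86e-08). The 7 endothelial markers together had between 423 and 521 CPM over the vehicle libraries and between 245 and 266 CPM over the bleo libraries, and the 5 mesothelial markers between 44.1 and 52.6 CPM and between 17.6 and 25.7 CPM, with none at 0 in every library of a group. Of 15 fibroblast markers, 11 were lower and 4 higher in *WT* bleo and 9 lower and 5 higher in Pear1-/- bleo, and of 7 pericyte markers, 4 and 5 were lower and 1 higher in each.

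*Hhip* per *Ptch1*, from CPM per kb, was 9.15 ± 4.70 in the *WT* libraries given vehicle (SD, n = 3), with replicate 2 at 14.6, and 15.2 ± 1.10 in the Pear1-/- ones, against 3.44 ± 0.409 and 3.99 ± 0.473 in those given bleo. The ratio was chosen after the values had been seen. The vehicle groups overlapped (exact permutation p = 0.2), and each bleo group lay below its vehicle group (exact permutation p = 0.1 for each, the smallest that 3 against 3 libraries allow).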
